A study of Mus musculus with 26 samples.

Results

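Collagens, laminins and their partners in the basement membrane were followed across 26 RNA-seq libraries of the mouse accumbens nucleus. Members were all genes whose symbol names a collagen chain (Col, a number, a, a number) or a laminin chain (Lama, Lamb or Lamc with a number), together with Hspg2, Nid1, Nid2, Agrn, Fn1 and Sparc. Of 61 such symbols, 57 had at least 10 counts in at least 3 libraries and were kept, out of 31735 gene symbols shared by all libraries. The 57 members were 40 of the 44 listed collagen chains, all 11 listed laminin chains and the 6 genes named singly. Col2a1 reached 10 counts in 1 library and Col8a2, Col9a1 and Col22a1 in none, so these 4 were dropped. Col5a1, Col6a5, Col6a6, Col9a2 and Col24a1 were just inside the rule, with 10 counts in 3 libraries.

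All mice were adults of the Drd2-TRAP CP101 line, in which the promoter of the dopamine D2 receptor gene Drd2 drives the ribosomal protein Rpl10a fused to EGFP. The line came from an FVB/N-Swiss Webster background crossed to C57BL/6 for 9 generations at least. Ribosomes were pulled down with anti-EGFP antibodies to enrich RNA of D2 receptor medium spiny neurons, and the Drd2 promoter is also active in striatal cholinergic interneurons. No library from mice without the transgene was analysed here. The mice worked for intravenous cocaine or saline in a long-access self-administration study. The immunopurified libraries were 2 from cocaine mice of the escalating group, 5 from cocaine mice of the nonescalating group, 3 from saline mice, 8 from nonescalating cocaine mice after withdrawal and 6 from saline mice after withdrawal. Whole-tissue input RNA was sequenced in 1 nonescalating cocaine library and 1 saline library, both without withdrawal. Descriptions of the nonescalating libraries mention withdrawal; the titles do not and decided the grouping. The labels do not say that each library came from its own animal, so p-values measure the spread between libraries. Library numbers fell into set 2 (1836 to 1843, withdrawal only: 5 nonescalating cocaine and 3 saline libraries) and set 1 (1806 to 1825, all the others).

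Basement membranes are thin sheets of matrix under endothelium and epithelium and around muscle cells, fat cells and peripheral nerves. Laminin trimers, each of an alpha, a beta and a gamma chain, bind integrins and dystroglycan at the cell surface and form a first network. Type IV collagen forms a second, covalently linked network, and nidogens and the heparan sulfate proteoglycan perlecan (Hspg2) connect them. In the brain these sheets surround the capillaries, where endothelial cells, pericytes and astrocyte endfeet all secrete chains. Fibrillar collagens such as types I and III lie in the meninges and around larger vessels.

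The immunopurified libraries held 1.54 M to 17.5 M counts in genes (median 3.27 M), and 3 counts amounted to 0.171 to 1.95 CPM (counts per 1000000 counts in genes, scaled with TMM factors). Drd2 lay between 243 and 2790 CPM (median 2056) in the 8 immunopurified libraries of nonescalating cocaine and saline mice, against 279 CPM and 392 CPM in the inputs. Nonescalating replicate 3 had the lowest Drd2 level and stood apart in its low D2 neuron marker sum. Vascular RNA was also abundant after the pull-down: the summed level of 32 endothelial and mural cell markers lay between 2377 and 13628 CPM in the same 8 libraries, against 404 CPM in the nonescalating input and 711 CPM in the saline input. The endothelial receptor Flt1 had a median of 1292 CPM there, against 42.6 CPM and 135 CPM in the inputs. Smooth muscle myosin Myh11 had a median of 104 CPM, against at most 0.138 CPM in the inputs. A fibroblast and meningeal marker list lay between 161 and 1116 CPM, against 150 CPM and 455 CPM in the inputs, where Lum and Mgp were at 0. Lum was also low in the 8 immunopurified libraries, with a median of 0.181 CPM (range 0 to 13.8). No member was in any marker list.

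**Figure D1:**
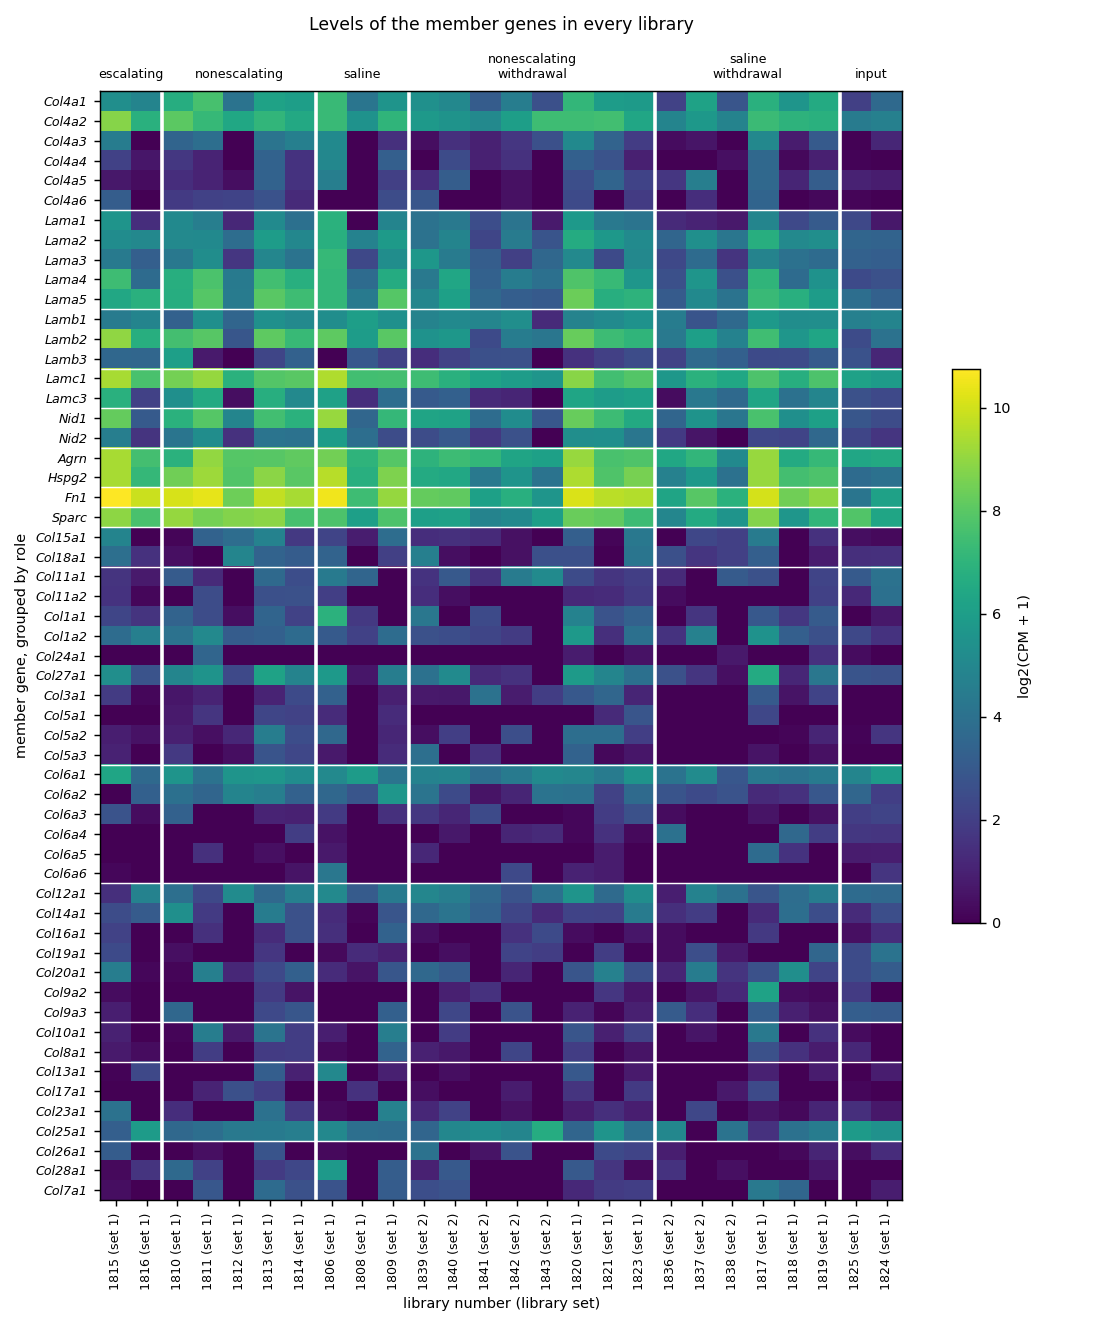
Level of 56 members (vertical axis, grouped by role) in each of the 26 libraries (horizontal axis, grouped as escalating, nonescalating, saline, both withdrawal groups with set 2 left of set 1, and input), as log2(CPM + 1) in colour. A block of basement membrane genes is present in nearly every immunopurified library and pale in set 2 and in the inputs, while most other collagens appear in scattered libraries.

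Start-site sequence is shown for 3 members described below. Hspg2, Nid1 and Lama5 were among the 21 members whose level rose with vascular markers. Col4a1 and Col4a2, whose slopes on those markers are given below, start back to back on opposite strands of chromosome 8. The windows are from RefSeq on GRCm38.p6, 250 bases before to 50 bases after the start for Hspg2 (chr4:137468553-137468852, plus strand), Nid1 (chr13:13437352-13437651, plus strand) and Lama5 (chr2:180225810-180226109, minus strand). Capitals mark GGGCGG or CCGCCC, the core of the GC box read on either strand.
Hspg2: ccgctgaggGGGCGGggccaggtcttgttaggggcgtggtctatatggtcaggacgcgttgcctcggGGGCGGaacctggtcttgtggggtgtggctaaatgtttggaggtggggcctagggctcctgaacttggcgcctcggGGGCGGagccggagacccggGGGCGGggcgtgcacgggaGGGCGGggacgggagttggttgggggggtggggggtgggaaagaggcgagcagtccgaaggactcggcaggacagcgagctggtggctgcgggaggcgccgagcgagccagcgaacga
Nid1: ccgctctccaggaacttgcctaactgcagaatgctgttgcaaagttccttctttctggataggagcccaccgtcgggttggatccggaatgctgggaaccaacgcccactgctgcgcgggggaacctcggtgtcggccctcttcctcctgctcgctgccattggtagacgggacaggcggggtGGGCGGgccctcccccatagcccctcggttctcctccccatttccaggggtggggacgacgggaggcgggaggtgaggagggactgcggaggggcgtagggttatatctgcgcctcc
Lama5: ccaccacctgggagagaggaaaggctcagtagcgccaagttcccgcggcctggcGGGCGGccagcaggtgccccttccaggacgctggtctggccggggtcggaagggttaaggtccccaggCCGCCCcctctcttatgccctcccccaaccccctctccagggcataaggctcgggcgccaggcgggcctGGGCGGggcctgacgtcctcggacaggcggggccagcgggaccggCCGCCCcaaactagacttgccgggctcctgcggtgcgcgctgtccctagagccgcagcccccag

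The Hspg2 window holds 5 such cores, the Lama5 window 4 and the Nid1 window 1. RefSeq windows were matched for 42 of the 57 members, in 46 windows, of which 63.0% held a GC box core, against 35.7% of all 32851 mouse windows of the same length. CCAAT or its complement ATTGG was in 30.4% of member windows, against 37.4% of all windows. TATAAA or TTTATA was in 10.9% of member windows, against 13.6% of all. CpG pairs had a median of 11.5 a window in members and 7 in all windows. These matches are letters in a window, not tested sites.

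The type IV collagen pair has first exons that overlap by 22 bases in a GENCODE annotation of GRCm38: the Col4a2 start (plus strand) is at position 11312805 and the Col4a1 start (minus strand) at 11312826 of chromosome 8. The shared bases are in capitals in the plus strand of chr8:11312777-11312854.
Col4a1/Col4a2: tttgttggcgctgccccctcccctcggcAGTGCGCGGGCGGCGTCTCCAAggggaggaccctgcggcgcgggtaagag

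The overlap is 0.29% of the exon bases of Col4a1. The counting's strand setting is not given in the sources used here, so reads in overlaps of members with other genes cannot be assigned to a strand. Such overlaps took up at most 8.45% of a member's exon bases (Nid2, with Rtraf).

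Levels were compared between genes as CPM per kilobase of exon. Per length, the highest members over the 24 immunopurified libraries were Sparc and Fn1. Sparc, a secreted glycoprotein that binds type IV collagen, had a mean of 54.9 CPM per kb (median 47.9, range 7.07 to 141), against 60.2 and 20.6 in the nonescalating and saline inputs. Fn1, fibronectin, had a mean of 53.4 CPM per kb (median 44.4, range 4.13 to 149), against 1.49 and 5.95 in these inputs. For Sparc both inputs lay inside the range of the immunopurified libraries. For Fn1 the nonescalating input lay below that range, and the saline input lay above its lowest library.

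In all, 8 members averaged over 10 CPM per kb in the immunopurified libraries. In descending order those after Sparc and Fn1 were the laminin gamma chain Lamc1 (28.1), the proteoglycan Agrn (24.9), the laminin beta chain Lamb2 (22.1), Hspg2 (19.2), Col4a2 (18.4) and the laminin-binding Nid1 (17.1). Their ranges over libraries overlapped broadly, so neighbours in this order were not separated. Lama5, Col4a1, Col6a1, Lama4, Lamc3, Lamb1, Nid2, Lama2, Lama3 and Lama1 followed, with means between 9.01 and 2.11 CPM per kb. At the other end, 27 members averaged under 1 CPM per kb, and the lowest were Col6a3 (0.136), Col5a1 (0.120), Col6a6 (0.113), Col6a5 (0.0858) and Col24a1 (0.0781).

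Each laminin chain was expressed as its share of the per-length sum of its class. Lamb2, a beta chain of laminins of vessels, synapses and kidney, was a median of 80.3% of the beta sum in the 24 immunopurified libraries (range 15.9% to 95.6%), against 18.4% and 46.7% in the inputs. Lamc1, the gamma chain of most laminins, was a median of 84.8% of the gamma sum, against 88.0% and 89.4% in the inputs. Among alpha chains, Lama5 and Lama4, the chains of endothelial laminins, held medians of 37.3% and 29.6%. Lama2, the alpha chain of muscle and peripheral nerve laminin that astrocytes also make, held 11.2%. Lama3, an epithelial chain, held 7.67% and Lama1, an embryonic and meningeal chain, 7.39%.

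Type IV collagen was almost wholly the pair that forms the common network of blood vessels. Col4a1 and Col4a2 together were a median of 94.0% of the per-length sum of the 6 chains (range 82.1% to 100%). Col4a3 to Col4a6, the chains of kidney glomerulus and a few other sheets, averaged between 0.286 and 0.914 CPM per kb. Col4a2 exceeded Col4a1 by a median ratio of 2.85 per kb over the 24 libraries (range 0.822 to 37.2), although the secreted trimer holds more alpha 1 than alpha 2 chains.

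Outside the basement membrane set, most collagens were seen in scattered libraries. In 7 members more than 50% of the CPM summed over the 24 immunopurified libraries came from 1 library. Col1a1, a chain of type I collagen of fibroblasts, had 121 CPM in saline replicate 1 and at most 26.5 CPM in any other immunopurified library. Col9a2, a cartilage chain, had 86.2% of its sum in saline withdrawal replicate 1 of set 1. Saline replicate 1 also held 73.4% of the sum of Col6a6, 57.3% of that of Col13a1 and 51.1% of that of Col28a1. Nonescalating replicate 2 held 73.6% of the sum of Col24a1, and saline withdrawal replicate 1 of set 1 held 64.4% of that of Col6a5. The 12 basement membrane members that were followed throughout (Agrn, Col4a1, Col4a2, Fn1, Hspg2, Lama4, Lama5, Lamb1, Lamb2, Lamc1, Nid1 and Sparc) made up a median of 84.4% of the CPM summed over all 57, against 63.5% and 70.5% in the inputs.

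Immunopurified RNA was compared with input to see which members came down with the tagged ribosomes. Hspg2 was 340, 576, 228, 468 and 257 CPM in the nonescalating pull-downs and 787, 110 and 412 CPM in the saline pull-downs, against 12.6 CPM in the nonescalating input and 15.04 CPM in the saline input. All 8 pull-downs were above both inputs, and the lowest, saline replicate 3, was still several times higher. Hspg2 rose with a log2 fold change of 4.89 ± 0.79 (SE, 8 libraries against 2; edgeR quasi-likelihood test, adjusted p = 0.0187). It was the single member called of 51 tested, while 0.255% of all 14929 genes were called. The change was 4.86 without the saline input (edgeR, adjusted p = 0.2996) and 4.85 without the nonescalating input (edgeR, adjusted p = 0.558), so the call was lost without either. Over all 19 alternatives its adjusted p ran from 2.81e-13 to 0.642.

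Without either input no member passed edgeR's test, and 11 of 55 had an unadjusted p under 0.05 in each case. Leaving out saline replicate 3 gave 7 called members, and leaving out nonescalating replicate 3 gave 6. DESeq2 called 15 of the 51, all higher. The share of all genes called or marked in these other fits is not given here. At an unadjusted p under 0.05, edgeR marked 20 members, 18 higher and 2 lower, against 8.27% of all genes.

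Of the 51 tested members 42 had a log2 fold change above 0, with a median of 2.44, against a median of 0.07 over all genes. Col3a1, Col5a3 and Col28a1 were at 0 in both inputs, so their change has only a lower bound, and with them at that bound the median is also 2.44. In 10 members all 8 pull-downs lay above both inputs, which is 19.6% of those tested against 3.26% of all genes: Agrn, Col4a1, Col4a2, Fn1, Hspg2, Lama2, Lama4, Lama5, Lamc1 and Nid1. In Col19a1 and Col25a1 all 8 lay below both inputs, as in 4.27% of all genes. Col6a4, Col6a5, Col6a6, Col24a1 and Col26a1 were among the 6 members too low to test.

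Among the laminin alpha chains, Lama4 lay between 12.5 and 206 CPM (median 109) in the 8 pull-downs, against 4.30 CPM and 5.41 CPM in the nonescalating and saline inputs. Its log2 fold change was 4.40 ± 1.05 (edgeR, adjusted p = 0.0799). Lama5 lay between 20.1 and 256 CPM (median 153), against 13.7 CPM and 9.02 CPM, with 3.70 ± 1.0045 (edgeR, adjusted p = 0.132). Both chains were apart from the inputs in every pull-down without passing the threshold. Lama2 had a smaller difference, 2.17 ± 0.81 (edgeR, adjusted p = 0.398).

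None of the beta chains passed the test. Lamb2 lay between 6.45 and 273 CPM (median 219) in the pull-downs, against 4.58 CPM and 15.8 CPM in the inputs, and the log2 fold change was 4.37 ± 1.14 (edgeR, adjusted p = 0.113). Nonescalating replicate 3 lay between the inputs and the other 7 pull-downs lay above both. Lamb1 lay between 9.28 and 63.6 CPM (median 39.0), against 24.7 CPM and 27.7 CPM. Its log2 fold change was 0.42 ± 0.74 (edgeR, adjusted p = 0.998). Lamb1 libraries thus overlapped their inputs on both sides. The gamma chain Lamc1 had 2.35 ± 0.69 (edgeR, adjusted p = 0.186).

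The linker Nid1 lay between 10.9 and 551 CPM (median 130), against 6.32 CPM and 4.61 CPM in the inputs, and the log2 fold change was 4.95 ± 1.24 (edgeR, adjusted p = 0.0970). Fn1 lay between 169 and 1462 CPM (median 762), against 17.4 CPM and 69.6 CPM, and the log2 fold change was 4.32 ± 0.93 (edgeR, adjusted p = 0.0634). Neither passed the threshold, and both had every pull-down above the inputs. Col4a1 had 3.62 ± 1.11 (adjusted p = 0.216), Col4a2 2.47 ± 0.67 (adjusted p = 0.131) and Agrn, which clusters receptors at the neuromuscular junction and is also a vessel proteoglycan, 1.59 ± 0.58 (adjusted p = 0.365, all edgeR).

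Sparc lay between 65.8 and 533 CPM (median 289), against 228 CPM and 78.2 CPM in the nonescalating and saline inputs, and the log2 fold change was 0.95 ± 0.52 (edgeR, adjusted p = 0.694). Its libraries overlapped the inputs. Col25a1, a transmembrane collagen of neurons, lay between 11.5 and 31.3 CPM (median 16.9), against 57.8 CPM and 43.1 CPM, and the log2 fold change was -1.44 ± 0.66 (edgeR, adjusted p = 0.573). Col19a1, a collagen made by some brain interneurons in mice, lay between 0 and 2.25 CPM, against 4.55 CPM and 16.04 CPM, with -3.64 ± 1.66 (edgeR, adjusted p = 0.566). These 2 collagens were the members with every pull-down below both inputs.

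**Figure D2:**
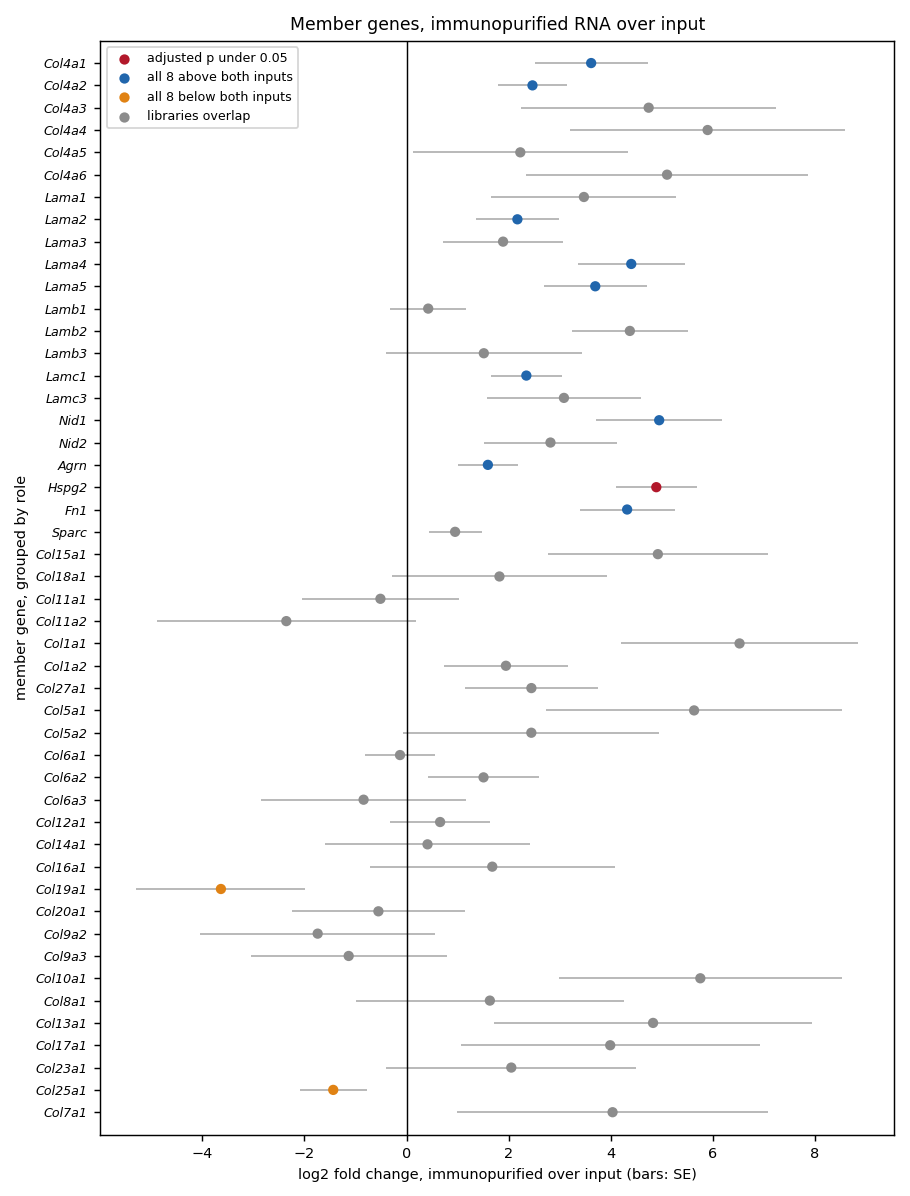
Log2 fold change of immunopurified over input RNA (horizontal axis) with its SE for 48 of the 51 tested members (vertical axis, grouped by role); the 3 members at 0 in both inputs are left out. Hspg2 in red has an adjusted p under 0.05, blue and orange points have all 8 pull-downs above or below both inputs, and grey points overlap.

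Vascular marker lists moved with these members in the same comparison. All 16 endothelial markers had a fold change above 0 (median 4.03, 1 called) and so did all 15 tested mural cell markers (median 4.25, 2 called). Fibroblast and meningeal markers had a median of 4.06, with 1 of 14 called. Astrocyte and oligodendrocyte markers had medians of -0.90 and -2.28. EdgeR called none of the 12 and none of the 11 tested, with 2 and 8 at an unadjusted p under 0.05, all lower. The part of vascular RNA in the pull-down of the members was not tested in this contrast.

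Genes that make, bind or cut these proteins had medians nearer 0. Collagen-processing enzymes and chaperones had a median log2 fold change of 0.09 (28 tested), integrins and other matrix receptors 0.40 (27 tested), and matrix proteases and their inhibitors 0.35 (16 tested). None of these was called by edgeR, with 3, 6 and 2 at an unadjusted p under 0.05. Of 39 other basement membrane and matrix genes, Vwf, the endothelial von Willebrand factor, was called.

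The level of the members varied widely between pull-downs of 1 group, and this variation was set against the vascular markers. The summed level of the 57 members was 486 to 6309 CPM over the 24 immunopurified libraries (median 2158), against 693 CPM in the nonescalating input and 650 CPM in the saline input. The fit used the mean log2 CPM of the endothelial and mural markers as a covariate beside group and library set, and its coefficient is the log2 change of a gene per log2 unit of the marker mean. Of 54 tested members, 21 had a slope that passed the test, all upward, against 13.3% of all 15854 genes, or 8.6% counting upward slopes alone. The median slope was 1.02 in members, with 47 above 0, and 0.05 over all genes. In bulk RNA, more cells of a type and more RNA per cell cannot be told apart, and levels are shares of each library's total. Reads assigned to no gene feature also varied, from 29.7% to 62.5% of the reads of an immunopurified library. Their part in the slopes was not tested.

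**Figure D3:**
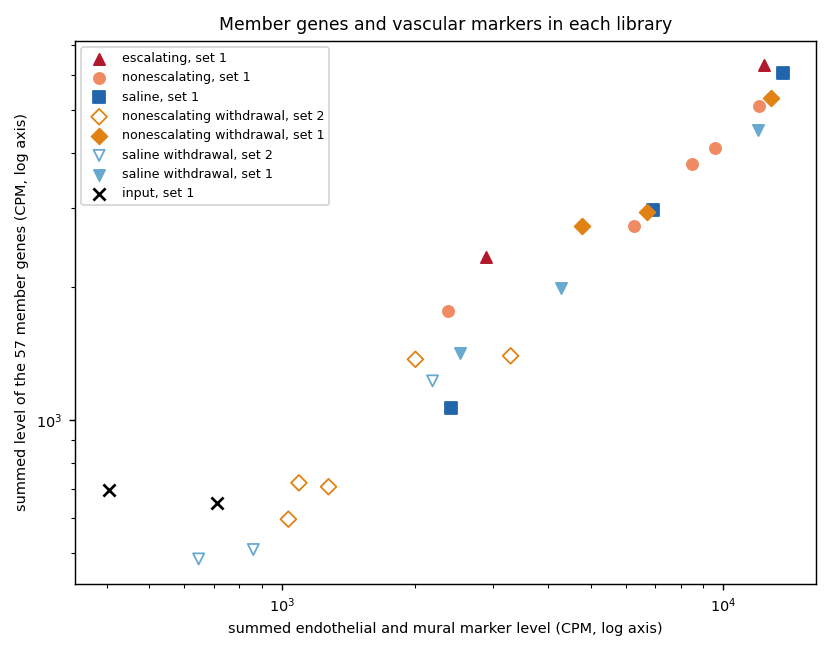
Summed level of the 57 members (vertical log axis, CPM) against the summed level of endothelial and mural markers (horizontal log axis, CPM), 1 point a library, by group and library set, with inputs as crosses. Set 2 libraries lie at 486 to 1395 CPM of member RNA and 646 to 3293 CPM of marker RNA, at the low end of both axes.

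The slopes with the lowest p-values were those of Nid1, Lama4, Fn1 and Hspg2. Nid1 had a slope of 1.55 ± 0.17 (SE; edgeR, adjusted p = 1.7e-07) and Lama4 1.42 ± 0.16 (edgeR, adjusted p = 3.19e-07). Fn1 had 0.88 ± 0.10 (edgeR, adjusted p = 3.39e-07) and Hspg2 0.88 ± 0.10 (edgeR, adjusted p = 4.34e-07). A slope of 1 means that a member changed in proportion to the markers; no slope was tested against 1.

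By role, all 5 laminin alpha chains were called, from Lama1 with 1.80 ± 0.35 (edgeR, adjusted p = 0.00082) to Lama2. Lama5 had 0.99 ± 0.19 (edgeR, adjusted p = 0.00057). Of the beta chains Lamb2 was called, with 1.12 ± 0.17 (edgeR, adjusted p = 2.67e-05), while Lamb1 had 0.07 ± 0.23 (edgeR, adjusted p = 0.873). The gamma chains Lamc1, with 0.69 ± 0.11 (edgeR, adjusted p = 0.000108), and Lamc3, with 1.89 ± 0.33 (edgeR, adjusted p = 0.000189), were called.

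Of the 6 type IV chains 5 were called, all but Col4a2. Of these 5, Col4a3 to Col4a6 were low, with medians of 0.924 to 2.51 CPM over the 24 immunopurified libraries. Each was at 0 in 4 to 10 of those libraries. Col4a1 had a slope of 1.10 ± 0.19 (edgeR, adjusted p = 0.000202) and Col4a2 0.34 ± 0.17 (edgeR, adjusted p = 0.190). The difference between the pair's slopes was not tested. Both heparan sulfate proteoglycans were called, Agrn with 0.60 ± 0.12 (edgeR, adjusted p = 0.00128), and Sparc had 0.55 ± 0.13 (edgeR, adjusted p = 0.00415). Among the other collagens, Col27a1, a fibrillar chain of cartilage, had 1.82 ± 0.29 (edgeR, adjusted p = 8.07e-05), and Col10a1 and Col23a1 were also called. Col10a1 and Col23a1 were at 0 in 9 and 8 of the 24 libraries, with medians of 0.751 and 0.612 CPM. None of the 5 tested beaded-filament chains of type VI and none of the 6 tested FACIT collagens, which decorate fibrils, was called by edgeR, with 0 and 1 at an unadjusted p under 0.05. Col25a1 had the opposite sign, -0.78 ± 0.31 (edgeR, adjusted p = 0.0941).

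**Figure D4:**
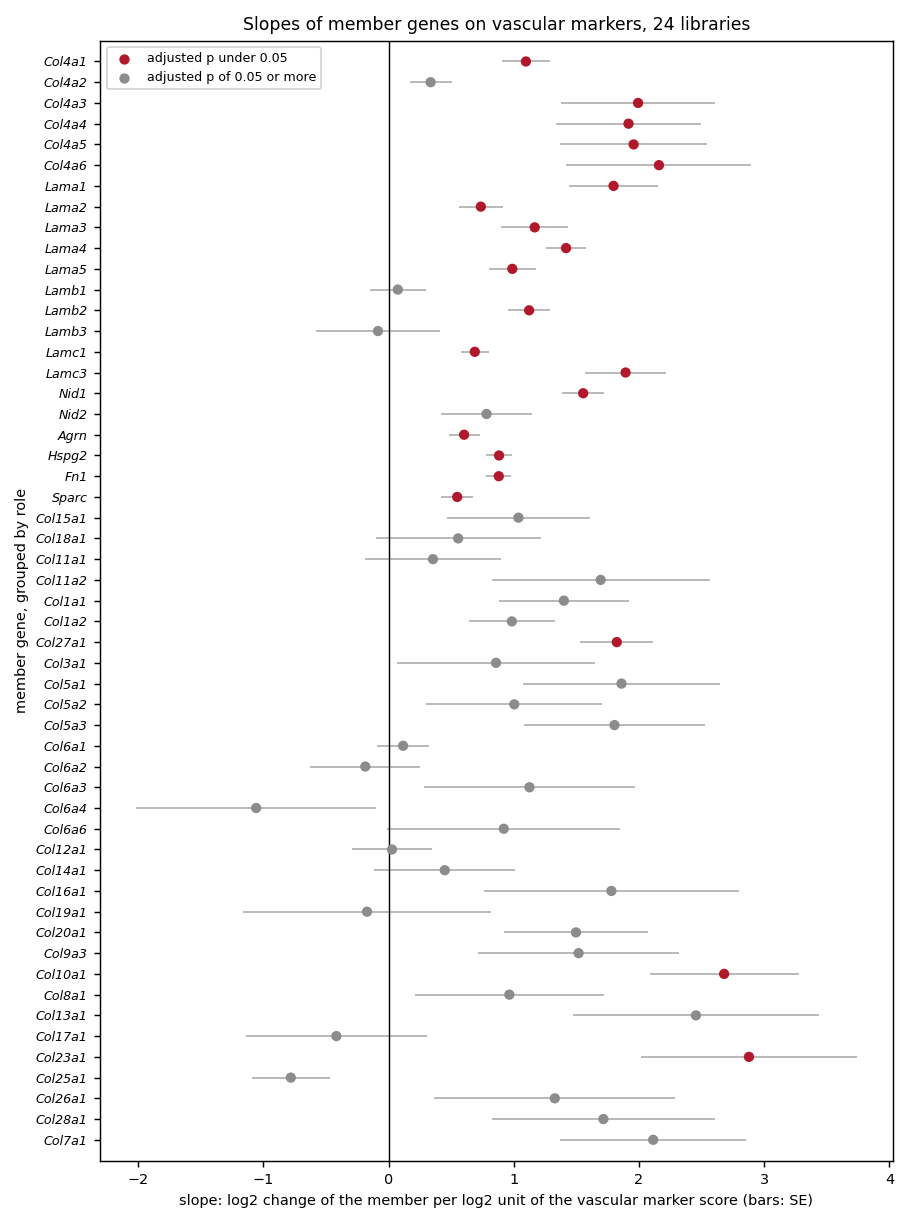
Slope on the vascular marker mean (horizontal axis, log2 change per log2 unit) with its SE for 53 of the 54 tested members (vertical axis, grouped by role); red points have an adjusted p under 0.05. The red points are the 21 called members, all right of 0, and Lamb1, Col4a2 and Col25a1 are grey.

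The slopes were also fitted within each set. In the 16 immunopurified libraries of set 1 alone 19 of 56 members were called, of which 18 were among the 21. In the 8 libraries of set 2 alone edgeR called none of 29, with 12 at an unadjusted p under 0.05, and the median slope was 0.89. With the replicate number as a block 15 of 54 were called, and with the fibroblast and meningeal list in place of the vascular markers 5. The median member slope on the fibroblast and meningeal list was 1.40, against 1.02 on the vascular markers. The difference between the lists was not tested. For these alternatives the share of all genes called is not given here, and the shares given above belong to the main vascular fit. In the same fit 9 of the 10 D2 neuron markers had a slope below 0, with Penk and Gprin3 called lower, and their part in the members' slopes was not tested. Of related genes with an upward slope, 4 of 29 collagen-processing genes were called (P4ha2, Plod1, Crtap and Pcolce), 7 of 27 receptors (Itga1, Itga4, Itga6, Itga7, Itgb1, Ddr2 and Bcam), 4 of 18 proteases and inhibitors, and 7 of 40 other basement membrane genes.

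Withdrawal libraries were made in both sets, which allowed set 2 and set 1 to be compared within the withdrawal groups. In set 2 Hspg2, Sparc, Fn1 and Lama5 were lower and no member was higher. This is 4 of 54 tested, against 0.915% of all genes in either direction and 0.757% counting lower genes alone. The median member difference was -1.63 on the log2 scale, with 43 below 0, against -0.09 over all genes, and 22 members were lower at an unadjusted p under 0.05, against 13.5% of all genes in both directions.

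Hspg2 was 94.0, 87.5, 19.6, 46.9 and 16.1 CPM in nonescalating cocaine and 25.7, 54.7 and 15.1 CPM in saline withdrawal libraries of set 2. In set 1 it was 699, 220 and 373 CPM in nonescalating cocaine and 554, 189 and 218 CPM in saline withdrawal libraries. Every set 2 library was below every set 1 library, and the difference was -3.13 ± 0.47 (edgeR, adjusted p = 0.000712). Fn1 lay between 48.2 and 300 CPM (median 113) in set 2, against 341 to 1132 CPM (median 765) in set 1, with -2.27 ± 0.44 (edgeR, adjusted p = 0.00762). Hspg2 and Fn1 were the 2 members whose sets did not overlap, as 0.618% of all genes were lower without overlap.

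Sparc lay between 26.8 and 95.1 CPM (median 55.3) in set 2, against 50 to 428 CPM (median 223) in set 1, with -2.03 ± 0.38 (edgeR, adjusted p = 0.00429). Lama5 lay between 7.31 and 68.6 CPM (median 13.8), against 60.0 to 329 CPM (median 116), with -2.70 ± 0.56 (edgeR, adjusted p = 0.0118). Each had a single set 1 library, saline withdrawal replicate 2 for Sparc and replicate 3 for Lama5, among or below the highest set 2 values. Agrn (-1.55 ± 0.40, adjusted p = 0.0536), Lamb2 (-2.21 ± 0.59, adjusted p = 0.0711) and Lamc1 (-1.36 ± 0.38, adjusted p = 0.0735, all edgeR) came next. Col25a1 was 0.63 ± 0.69 (edgeR, adjusted p = 0.758).

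The count of called members moved between 3 and 9 when single libraries were left out. Without nonescalating withdrawal replicate 1 of set 1 it was 3, and Lama5 was lost. Without saline replicate 3, nonescalating replicate 3, saline withdrawal replicate 2 of set 1 or saline withdrawal replicate 2 of set 2 it was 8, 8, 7 and 9 in that order. DESeq2 called 15 of 54, all lower in set 2. How many of all genes were called in these alternative fits is not given here.

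The same markers differed between the sets. The vascular marker sum lay between 646 and 3293 CPM (median 1182) in set 2, against 2535 to 12812 CPM (median 5743) in the withdrawal libraries of set 1. Of the endothelial markers 8 of 16 were called lower (median -2.17) and of the mural markers 3 of 15 (median -1.99). Drd2 had a median of 2033 CPM in set 2, against 2177 CPM in set 1, and none of the 10 D2 neuron markers was called by edgeR, nor did any have an unadjusted p under 0.05. The part of vascular RNA in the members' difference between sets was not tested. Set 2 libraries held 1.54 M to 3.42 M counts in genes, against 1.94 M to 14.3 M in the withdrawal libraries of set 1. Reads that were not unique made up 19.9% to 41.2% in set 2, against 13.7% to 36.7%. The deposited tables listed 32531 genes for set 2 and 32657 for set 1. The part of these differences was not tested either. Why the library numbers fall into sets is not given in the sources used here.

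The pull-down was also set against input for the withdrawal libraries of each set; the difference between sets was not tested. With the 8 set 2 libraries in place of the 8 libraries without withdrawal, edgeR called none of 36 tested members against input. At an unadjusted p under 0.05 it marked 4, of which Nid1, Fn1 and Lama4 were higher and Sparc was lower. The median log2 fold change of these 36 was 0.23, with fewer members tested than in the main fit. With the 6 withdrawal libraries of set 1, 8 members were called: Col4a1, Col4a2, Fn1, Hspg2, Lama5, Lamb2, Lamc3 and Nid1. Shares of all genes called in these fits are not given here, so the counts cannot be compared with each other as rates. Both inputs belong to set 1, so set and pull-down cannot be told apart in the set 2 value.

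**Figure D5:**
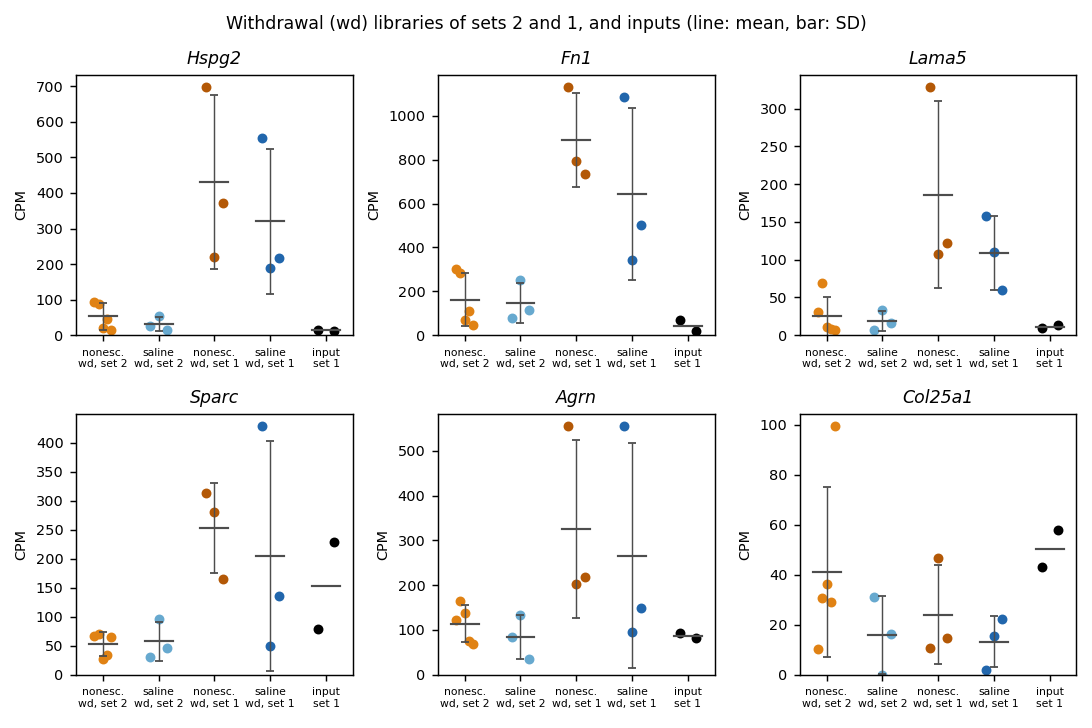
Level in CPM (vertical axes, from 0) of Hspg2, Fn1, Lama5, Sparc, Agrn and Col25a1 in withdrawal libraries of set 2 and set 1, for nonescalating cocaine and saline mice, and in the inputs; points are libraries, lines means and bars SD. Hspg2 lies at 15.1 to 94.0 CPM in set 2 and 189 to 699 CPM in set 1, while Col25a1 overlaps.

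Cocaine intake and withdrawal were compared in 7 contrasts of a single fit with group and library set. EdgeR called no member and no gene in any of them (0% of the 15854 genes), and DESeq2 called no member. At an unadjusted p under 0.05, edgeR marked 3, 0, 2, 6, 6, 1 and 7 of the 54 tested members in the contrasts in the order described below. Several contrasts share their libraries. Col6a5, Col9a2 and Col24a1 were too low to test.

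In nonescalating cocaine against saline mice, 29 of 54 members were above 0 and the median was 0.11, against 0.01 over all genes; 3 members had an unadjusted p under 0.05, against 6.74% of genes. Sparc was 533, 361, 434, 474 and 197 CPM in nonescalating libraries, against 218, 65.8 and 214 CPM in saline libraries. Of the nonescalating libraries 4 were above all saline libraries and replicate 5 was not, and the log2 fold change was 1.25 ± 0.54 (edgeR, adjusted p = 0.719). Col1a1 was 9.87, 4.72, 0.322, 10.1 and 3.42 CPM in nonescalating libraries, against 121, 2.48 and 0 CPM in saline libraries, with -2.89 ± 1.49 (edgeR, adjusted p = 0.738). That value turned to 2.10 without saline replicate 1. No member had its groups apart, as 1.26% of genes were higher and 1.12% lower without overlap.

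In escalating cocaine against saline mice, 21 of 54 members were above 0 and the median was -0.47, against -0.08 over all genes; none had an unadjusted p under 0.05 by edgeR, against 8.09% of genes, and 4 had by DESeq2. Col17a1, Col5a1 and Col6a4 were at 0 in both escalating libraries, and with them at their bound the median was -0.45. Col1a2 and Lamb3 were higher in both escalating libraries than in any saline library, as 7.66% of genes were, and Lamb1 was lower in both, as 6.55% were. Col4a2 was 452 and 112 CPM in escalating libraries, against 158, 44.1 and 131 CPM in saline libraries, with a log2 fold change of 1.32 ± 0.65 (edgeR, adjusted p = 0.614). Escalating replicate 1 alone lay above the saline range, and without it the value was -0.003 and the median of all members -2.74. Without saline replicate 1 that median was 0.76.

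In escalating against nonescalating cocaine mice, 22 of 54 members were above 0 and the median was -0.20, against -0.12 over all genes; 2 had an unadjusted p under 0.05, against 8.75% of genes. Col6a2, a type VI chain, was 0 and 8.99 CPM in escalating libraries, below all nonescalating libraries (9.28 to 28.4 CPM), as were 4.07% of genes. Col4a2 had 0.97 ± 0.58 (edgeR, adjusted p = 0.589), which became -0.36 without escalating replicate 1, and the median of members became -2.77.

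In nonescalating cocaine against saline mice after withdrawal, 43 of 54 members were above 0 and the median was 0.82, against 0.05 over all genes. Here 6 members had an unadjusted p under 0.05, all higher, against 3.49% of genes. No member had its groups apart, as 0.0189% of genes were higher and 0.0126% lower without overlap. The median was 0.48 in set 2 alone and 0.34 in set 1 alone. It was 0.26 with the vascular marker mean as a covariate and 0.34 with the replicate number as a block. Without the library set term it was 0.41, and with only the compared groups fitted 0.58.

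Lama1 lay between 0.731 and 53.7 CPM (median 16.7) in the 8 cocaine libraries, against 0.685 to 28.8 CPM (median 2.80) in the 6 saline libraries, with 2.24 ± 1.03 (edgeR, adjusted p = 1). Nid2, the second nidogen, lay between 0 and 40.7 CPM (median 6.18), against 0 to 11.6 CPM (median 3.08), with 2.07 ± 0.85 (edgeR, adjusted p = 1). In both genes the groups overlapped. Col5a2, a minor fibrillar chain, lay between 0 and 13.96 CPM, against 0 to 1.14 CPM with 4 saline libraries at 0, and had 4.92 ± 1.59 (edgeR, adjusted p = 1). Hspg2 lay between 16.1 and 699 CPM (median 90.8), against 15.1 to 554 CPM (median 122), with 0.59 ± 0.47 (edgeR, adjusted p = 1). Its raw medians are in the opposite order to the fitted value, which has a term for the set.

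In saline mice after withdrawal against saline mice without, 19 of 54 members were above 0 and the median was -0.38, against -0.05 over all genes; 6 had an unadjusted p under 0.05, all lower, against 6.64% of genes. Col6a6 was at 0 in all saline withdrawal libraries. Lama3 lay between 2.05 and 26.9 CPM (median 12.7) after withdrawal, against 148, 4.01 and 38.02 CPM without, with -2.16 ± 0.92 (edgeR, adjusted p = 0.742). Col1a1 had -3.30 ± 1.52 (edgeR, adjusted p = 0.743), which became 1.70 without saline replicate 1. In both genes the high value without withdrawal was that of saline replicate 1, and without it the median of members was 0.34. No member had its groups apart, as 1.21% of genes were higher and 1.1% lower without overlap.

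In nonescalating cocaine mice after withdrawal against those without, 33 of 54 members were above 0 and the median was 0.26, against 0.01 over all genes; 1 had an unadjusted p under 0.05, against 2.78% of genes. The median was -0.56 without the library set term and -0.13 with the replicate number as a block. Sparc lay between 26.8 and 313 CPM (median 68.8) after withdrawal, against 197 to 533 CPM without, with -0.80 ± 0.46 (edgeR, adjusted p = 1). Its 3 set 1 withdrawal libraries, at 313, 280 and 165 CPM, lay in or just below the range without withdrawal, and its 5 set 2 libraries lay below it. Lamb3, the beta chain of skin laminin, had -2.49 ± 1.23 (edgeR, adjusted p = 1), and nonescalating replicate 1 at 65.5 CPM was its highest library. No member had its groups apart, as 0.0631% of genes were higher and 0.0568% lower without overlap.

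The difference between the cocaine effect with and without withdrawal was above 0 in 37 of 54 members, with a median of 0.56, against 0.07 over all genes; 7 had an unadjusted p under 0.05, all higher, against 4.89% of genes. The median was -0.12 with the replicate number as a block, and -0.05 without saline replicate 1. Lama1 had 3.43 ± 1.53, Lama3 2.63 ± 1.18 and Col1a1 4.92 ± 1.96 (edgeR, adjusted p = 0.972 for each). Leaving out single libraries, Lama1 ran from 1.58 to 4.11 and Lama3 from 0.98 to 3.17. Without saline replicate 1 the value of Col1a1 was -0.07. Over the 7 contrasts no member's difference passed the test against the spread between libraries.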

How the data were processed

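Polysome-bound (TRAP) and input RNA were sequenced per the labels. The authors' deposited tables hold raw read counts per gene for each library; per the submitters' processing notes, reads were aligned with STAR 2.0.0e to mm10 and counted with HTSeq. Rows for reads outside genes (ambiguous, not unique or no feature) were left out; 13.7% to 48.6% of the reads of an immunopurified library were in genes. Gene lists, members and comparisons were chosen with earlier results of these data known, so no pattern is independent support. CPM used TMM factors over all 26 libraries, and lengths came from a GENCODE annotation of GRCm38. Tests used edgeR 4.0.16 (R 4.3.3, limma 3.58.1): robust quasi-likelihood fits, filterByExpr with a minimum count of 10, Benjamini-Hochberg adjustment over all genes and a threshold of 0.05. Terms were group and library set (24 immunopurified libraries) or pull-down and agent (8 against 2 inputs). The script was tested on simulated data. For each comparison the rule named called members (up to 12 a direction), filled up to 5 by ascending p where calls were fewer, plus 17 followed throughout; values are printed for those the text turns on. DESeq2 1.42.0, other scalings, filters, library subsets and leaving out each library were alternatives. The values of 1 member gene are not reported here.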

Additional observations from a re-analysis of the deposited data

Results flagged for a closer look

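Among 54 groups of 4 to 10 libraries examined for 17 followed members on the log2 scale, 3 held a library far from its fellows; chance alone marks about 1 group in 20. Lama4 was 20.6 CPM in nonescalating replicate 3, the lowest of its group. Lamb2 was 6.45 CPM in the same library, also the lowest. That library had the lowest Drd2 level of the immunopurified libraries, 243 CPM, and its part in these values was not tested. Lamb1 was 1.46 CPM in nonescalating withdrawal replicate 5 of set 2, the lowest of its group.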

How the results depend on the processing

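The share of all genes called under each alternative is not given here, so the counts of members stand without it. Called members numbered 15, 3 and 2 for pull-down against input, against 1 as reported, with DESeq2, without a filter on low counts and with a CPM filter of 1. With 16 set 1, 24, 8 set 2 or 6 set 1 withdrawal libraries they numbered 4, 4, 0 and 8, and 0 to 7 leaving out single libraries. Between sets they numbered 15 with DESeq2 and 8 without a filter, against 4, and 3 to 9 leaving out single libraries. For the vascular slope they numbered 0 in set 2 alone (8 libraries, fewer genes tested) and 5 on the fibroblast list (median slope 1.40, against 1.02). The main fit had 21, and leaving out single libraries gave 16 to 23. The other causes were not tested. The 7 cocaine and withdrawal contrasts had 0 in every alternative run. Medians over the members changed sign in nonescalating cocaine after withdrawal against without (-0.56 without the library set term and -0.13 with the replicate block, against 0.26; -0.02 to 0.41 leaving out single libraries) and in the difference of cocaine effects (-0.12 with the replicate block, against 0.56; -0.05 to 1.13). Leaving out single libraries they also changed sign in nonescalating against saline (-0.30 to 0.73), escalating against saline (-2.74 to 0.76), escalating against nonescalating (-2.77 to 0.10) and saline withdrawal against saline (-1.11 to 0.34). Single values that changed sign were, in the set 2 pull-down (chosen after seeing the data), Sparc -1.43 and Lamb1 -0.48; for set 2 slopes, Col4a2 -0.21 and Lamb1 -0.0001, and Lamb1 -0.0447 without nonescalating replicate 3 and -0.0161 without saline withdrawal replicate 1 of set 1 (-0.0447 to 0.19 leaving out single libraries). Col1a1 in nonescalating against saline was 0.083 against set 1 saline withdrawal and 1.80 without the 3 least correlated libraries (-3.47 to 2.10 leaving out single ones); in saline withdrawal against saline it was 1.68 without those 3 (-3.88 to 1.70), and in the difference of cocaine effects -0.07 to 5.51. Col4a2 ran from -0.003 to 2.03 in escalating against saline and from -0.36 to 1.65 against nonescalating. With the replicate number as a block, 15 slopes and 4 set differences were called and no contrast of cocaine or withdrawal. Correlations of deviations ran from -0.165 to 0.284 over 53 same-numbered pairs (median 0.026, 14 above 0.1). Over 190 pairs with other numbers they ran from -0.312 to 0.264 (median 0.0007, 38 above 0.1). These values do not settle whether the numbers pair libraries.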

Other observations

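Slopes on other cell markers were computed after seeing the data, in the same fit with those markers in place of the vascular ones. On astrocyte markers edgeR called no member and no gene, with 2 members and 5.49% of genes at an unadjusted p under 0.05; Hspg2 had a slope of -0.04 and Sparc 0.11. On D2 neuron markers 48 of 54 members had a slope below 0, with a median of -0.78, against -0.04 over all genes. Of these, 2 were called downward, Col13a1 and Lama2, against 3.1% of genes. Hspg2 had -0.69 (edgeR, adjusted p = 0.0992), Sparc -0.55 (edgeR, adjusted p = 0.0880) and Col25a1 -0.09, the last near 0.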
